A study of Mus musculus with 16 samples.

Results

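The 9 transcripts described here were listed as neutrophil transcripts, and which cells carried them was not tested. They were measured in mouse cerebral cortex after lipopolysaccharide (LPS), a component of the bacterial outer membrane that activates innate immune cells. They were *S100a8*, *S100a9*, *Csf3r*, *Cxcr2*, *Retnlg*, *Ngp*, *Fpr1*, *Fpr2* and *Trem1*, matched by gene symbol among the 55487 genes in the table. The matching used no measured value, although the list itself was drawn up with earlier results of these data known. All 16 mice were 2-month-old wild-type C57Bl6 males that received intraperitoneal injections on 2 consecutive days, either of LPS at 2 mg/kg or of PBS, the vehicle. Injections were given at zeitgeber time (ZT) 1, early in the light phase, or at ZT13, early in the dark phase, and cortex was collected 24 hours after the last one. Each time had 3 mice given PBS and 5 given LPS. ZT1 and ZT13 therefore name both the hour of injection and the hour of collection, and these cannot be told apart. The question was whether the level of neutrophil transcripts in cortex differed with treatment, and whether the response to LPS differed with time of day.

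Neutrophils are short-lived white blood cells made in bone marrow under the control of granulocyte colony-stimulating factor, and they are the first blood cells to be recruited to a site of infection. They leave the circulation along gradients of chemokines that bind CXCR2, sense bacterial and host peptides through formyl peptide receptors, and store antimicrobial proteins in granules. Granule proteins are largely transcribed in the marrow, whereas mature cells carry high levels of *S100a8* and *S100a9* mRNA. The healthy brain parenchyma holds few neutrophils, and those seen after systemic inflammation can lie inside vessels, in the meninges or in the tissue. RNA from bulk cortex does not tell these places apart. It also does not separate a change in the number of cells from a change in RNA per cell.

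Values are CPM (counts scaled to a library total of 1000000). Libraries held 20251840 to 29112758 reads on genes, so 1 CPM was about 20 to 29 reads and a gene at 0 reads could still be present below about 3 reads. The cortical neuron transcripts *Slc17a7* and *Tbr1* were abundant in every library, and choroid plexus markers varied widely, with a summed level of 12.4 to 948 CPM. The treatment field of the labels contradicted the sample titles for 12 of 16 samples, and the titles were used here. *Gfap*, an astrocyte gene induced by inflammation, measured 572 to 1134 CPM in the 10 mice with LPS in the title, and 111 to 123 CPM in the other 6.

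*S100a8* and *S100a9* encode the subunits of calprotectin, an abundant calcium- and zinc-binding protein of the neutrophil cytosol that is released during inflammation. The genes are neighbours on chromosome 3 of GRCm38, with *S100a8* (ENSMUSG00000056054) at chr3:90668978-90670035 on the plus strand and *S100a9* (ENSMUSG00000056071) at chr3:90692632-90695721 on the minus strand, 22596 bases apart. The sequences upstream of the RefSeq starts are shown for this pair, because their transcripts moved together from mouse to mouse, and for *Ngp*, which did not follow them. Each is from RefSeq on GRCm38.p6, written 5′ to 3′ on the strand of its gene, with bases inside the annotated gene left out. The stretches are chr3:90668821-90668977 for *S100a8*, chr3:90695722-90695971 for *S100a9* and chr9:110419558-110419746 for *Ngp*. Capitals mark a match to the core of a myeloid transcription factor motif described further on, PU.1 in *S100a8* and C/EBP in *S100a9* and *Ngp*.
S100a8: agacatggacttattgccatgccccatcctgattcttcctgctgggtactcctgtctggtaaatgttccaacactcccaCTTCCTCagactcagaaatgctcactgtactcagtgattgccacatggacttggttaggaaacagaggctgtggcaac
S100a9: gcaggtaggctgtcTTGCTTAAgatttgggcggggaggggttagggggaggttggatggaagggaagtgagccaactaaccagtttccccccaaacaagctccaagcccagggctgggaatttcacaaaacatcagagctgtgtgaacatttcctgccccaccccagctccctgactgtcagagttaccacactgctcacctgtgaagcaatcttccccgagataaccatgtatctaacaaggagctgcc
Ngp: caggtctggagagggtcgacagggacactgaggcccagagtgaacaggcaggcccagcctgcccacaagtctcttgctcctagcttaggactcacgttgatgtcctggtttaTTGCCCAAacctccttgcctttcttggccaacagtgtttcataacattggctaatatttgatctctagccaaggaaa

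*S100a8* was close to absent from PBS cortex and rose after LPS at both times. Its CPM in the ZT1 PBS mice was 0.148, 0.148 and 0.0421, and in the ZT1 LPS mice 10.7, 1.21, 3.54, 8.37 and 2.04. At ZT13 it was 0, 0 and 0.0896 in the PBS mice and 12.9, 10.6, 18.4, 18.6 and 5.33 in the LPS mice. Every LPS mouse lay above every PBS mouse at the same time, and the ZT1 LPS mice spanned an 8.88-fold range. The log2 fold change of CPM + 0.5 was 2.87 at ZT1 (standard error (SE) 0.52, limma adjusted p = 0.0034) and 4.57 at ZT13 (SE 0.30, limma adjusted p = 8.1e-08). The PBS libraries held only 7 *S100a8* reads in all at ZT1 and 2 at ZT13, so the fold on the CPM scale was poorly bounded. Pooled over libraries it was 47.9-fold at ZT1 (95% counting interval 23.1 to 120) and 471-fold at ZT13 (130 to 3892), and these intervals cover counting error only.

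*S100a9* had the largest rise of the 9 in log2(CPM + 0.5) at both times. It measured 0.394, 0.0988 and 0.0842 CPM in ZT1 PBS, and 26.4, 4.61, 9.996, 24.2 and 4.94 CPM in ZT1 LPS. In ZT13 PBS it measured 0.0759, 0.185 and 0.179 CPM, and in ZT13 LPS 29.2, 26.6, 46.0, 47.3 and 17.8 CPM. The LPS and PBS mice did not overlap, and the mice with high *S100a8* were those with high *S100a9*. The log2 fold change was 4.07 at ZT1 (SE 0.52, limma adjusted p = 0.00035) and 5.63 at ZT13 (SE 0.25, limma adjusted p = 1.8e-09). The rank depends on the constant added. Pooled over libraries, the CPM ratio at ZT13 was 239-fold for *S100a9* (95% counting interval 130 to 498) and 471-fold for *S100a8* (130 to 3892). The ratio of *S100a9* to *S100a8* CPM stayed between 2.26 and 3.81 over the 10 LPS mice, although *S100a8* itself ranged from 1.21 to 18.6 CPM among them.

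*Csf3r* (ENSMUSG00000028859, chr4:126024550-126044440) encodes the receptor for granulocyte colony-stimulating factor, which is carried by neutrophils, their precursors and, at lower levels, other myeloid cells. It was the exception among the 9 in having a level above 1 CPM in every PBS mouse. Its CPM was 3.94, 4.30 and 3.66 in ZT1 PBS and 23.4, 3.85, 8.93, 24.4 and 10.3 in ZT1 LPS. In ZT13 PBS it was 3.42, 3.19 and 3.67, and in ZT13 LPS 23.3, 23.4, 35.7, 33.9 and 14.7. ZT1 LPS replicate 2 lay within the PBS range, while the groups at ZT13 were apart. The log2 fold change at ZT1 was 1.45 and did not pass the threshold (SE 0.46, limma adjusted p = 0.054). At ZT13 *Csf3r* rose by 2.70 on the same scale (limma adjusted p = 4.9e-07, SE 0.21). Without ZT1 LPS replicate 2 the ZT1 value was 1.82 and passed (limma adjusted p = 0.0021). That was the 1 call in 8 fits that each left out 1 mouse, where the limma adjusted p reached 0.16. With all mice, 2 of 9 alternative settings gave a call.

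*Cxcr2* (ENSMUSG00000026180, chr1:74153989-74161246), the chemokine receptor through which neutrophils follow CXCL1 and its relatives, had 0 reads in all 6 PBS libraries. In ZT1 LPS it was at 6.67, 0.671, 2.10, 7.18 and 1.36 CPM, and in ZT13 LPS at 11.4, 7.61, 13.2, 13.4 and 4.93 CPM. All 10 LPS mice were above all PBS mice, and ZT1 LPS replicates 2 and 5 had the lowest values. Taking 3 reads in each PBS library as the limit, *Cxcr2* was at least 25.5-fold higher after LPS at ZT1 and at least 78.3-fold higher at ZT13. On the log2(CPM + 0.5) scale, where a gene at 0 depends on the constant added, the difference was 2.66 at ZT1 (SE 0.54, limma adjusted p = 0.0064) and 4.32 at ZT13 (SE 0.26, limma adjusted p = 3.0e-08).

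*Retnlg* (ENSMUSG00000022651, chr16:48872621-48874496) encodes resistin-like gamma, a small secreted protein of mouse neutrophils. Its level in PBS mice was at most 0.179 CPM. In ZT1 LPS mice it was 4.06, 1.75, 2.27, 2.91 and 0.861 CPM, and in ZT13 LPS mice 5.54, 4.43, 7.42, 6.78 and 3.896 CPM. *Retnlg* rose at both times, by 2.32 at ZT1 (limma adjusted p = 0.00058, SE 0.32) and by 3.29 at ZT13 (limma adjusted p = 2.5e-08, SE 0.19) in log2(CPM + 0.5). Its CPM spanned 4.71-fold among the ZT1 LPS mice, against 10.7-fold for *Cxcr2*. The other resistin-like genes, *Retn*, *Retnla* and *Retnlb*, were too low to test, with a summed level of 0.134 to 0.805 CPM over the 16 mice.

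*Ngp* (ENSMUSG00000032484, chr9:110419747-110423012) encodes neutrophilic granule protein, which is made mainly by neutrophil precursors in the marrow. Its CPM was 0.148, 0.198 and 0.547 in ZT1 PBS and 1.17, 1.43, 2.06, 0.420 and 0.589 in ZT1 LPS. At ZT13 the PBS mice had 0.114, 0.139 and 0.224 and the LPS mice 1.77, 1.20, 1.55, 1.52 and 0.851. At ZT1 one LPS mouse, replicate 4, fell inside the PBS range, and that mouse had among the highest levels of the other 8 genes. The log2 fold change was 0.97 at ZT1, short of the threshold (SE 0.32, limma adjusted p = 0.063). *Ngp* rose at ZT13, by 1.49 (SE 0.19, limma adjusted p = 5.3e-05), the smallest increase of the 9 on this scale.

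*Fpr1* (ENSMUSG00000045551) and *Fpr2* (ENSMUSG00000052270) encode formyl peptide receptors, which bind N-formylated peptides released by bacteria and mitochondria, and FPR2 also binds host ligands such as annexin A1 and serum amyloid A. They lie back to back on chromosome 17, *Fpr1* at chr17:17876471-17883940 on the minus strand and *Fpr2* at chr17:17887824-17893952 on the plus strand. *Fpr1* was at 0.0896 to 0.493 CPM in the PBS mice, at 4.29, 0.850, 1.17, 3.71 and 0.906 CPM in ZT1 LPS and at 5.36, 4.43, 6.16, 8.68 and 3.31 CPM in ZT13 LPS. *Fpr2* was at 0 to 0.126 CPM in the PBS mice, at 2.43, 0.537, 0.756, 1.16 and 0.680 CPM in ZT1 LPS and at 2.44, 1.85, 3.82, 4.47 and 1.07 CPM in ZT13 LPS. Neither receptor overlapped between LPS and PBS mice at either time. *Fpr1* rose by 1.63 in log2(CPM + 0.5) at ZT1 (SE 0.42, limma adjusted p = 0.023) and by 2.87 at ZT13 (SE 0.25, limma adjusted p = 1.2e-06). *Fpr2* rose by 1.47 at ZT1 (SE 0.31, limma adjusted p = 0.0076) and by 2.45 at ZT13 (SE 0.30, limma adjusted p = 3.4e-05). The family has close paralogs, and how reads that match several of them were counted is not given in the sources used here. The ZT1 call of *Fpr1* was lost, at an adjusted p of up to 0.095, when ZT1 PBS replicate 1 or 2 was left out.

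*Trem1* (ENSMUSG00000042265, chr17:48232768-48246924), a receptor that amplifies Toll-like receptor responses in neutrophils and monocytes through the adaptor TYROBP, was the least abundant. It had 0 reads in all 6 PBS libraries. It reached 0.513, 0.224, 0.309, 0.910 and 0.136 CPM in ZT1 LPS, with 3 to 26 reads a library, and 0.886, 1.12, 1.89, 1.55 and 0.672 CPM in ZT13 LPS. All LPS mice were above all PBS mice, and the level was at least 2.97-fold higher at ZT1 and at least 9.48-fold higher at ZT13, with 3 reads in each PBS library as the limit. The fitted difference was 0.82 at ZT1 (SE 0.26, limma adjusted p = 0.055) and 1.74 at ZT13 (SE 0.23, limma adjusted p = 6.1e-05).

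**Figure D1:**
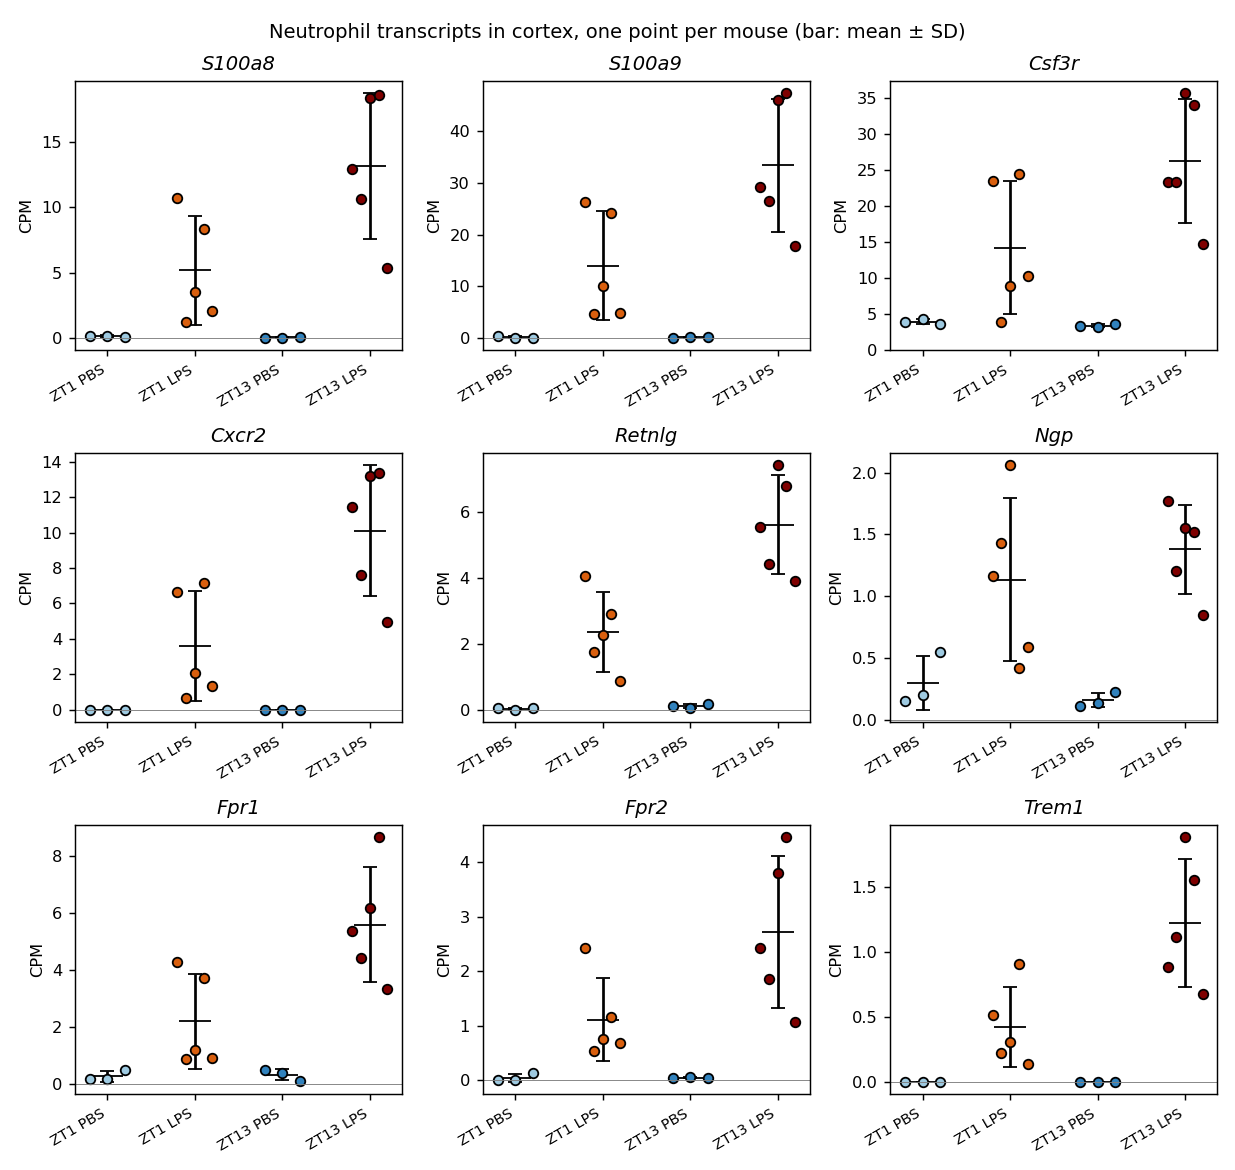
Level of each of the 9 transcripts in CPM (y axis, from 0) in the 4 groups (x axis), with one point per mouse and the mean ± SD as black bars, n = 3 for PBS and n = 5 for LPS. The PBS mice lie near 0 except for *Csf3r*, at 3.19 to 4.30 CPM, and the ZT1 LPS mice of most panels fall into a high pair and a low group.

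After LPS, 6 of the 9 transcripts rose at ZT1 (*S100a8*, *S100a9*, *Cxcr2*, *Retnlg*, *Fpr1* and *Fpr2*), and all 9 rose at ZT13. Over all 18859 genes tested, 16.2% were called at ZT1 and 28.6% at ZT13, with 11.1% and 19.2% called higher. Of all calls, 68.2% at ZT1 and 67.2% at ZT13 were higher after LPS, and with median-of-ratios scaling these shares were 54.4% and 50.1%, while the same numbers of the 9 were called. The median log2 fold change of the 9 was 1.63 at ZT1 and 2.87 at ZT13, against 0.04 and 0.05 over all genes tested. All 9 passed the filter on low values, 8 of them through the LPS mice alone, so their passing required a higher level after LPS and the counts are a description. The LPS and PBS mice did not overlap for 7 of 9 at ZT1, the exceptions being *Csf3r* and *Ngp*, and for 9 of 9 at ZT13. Among all genes tested the groups did not overlap, with LPS higher, for 15.9% at ZT1 and 20.9% at ZT13. A two-sided exact permutation test of each gene gave p = 0.036 wherever groups did not overlap, the smallest that 3 mice against 5 allow, and p = 0.11 for *Csf3r* and 0.071 for *Ngp* at ZT1.

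The ZT13 LPS mice had a higher mean than the ZT1 LPS mice for all 9 transcripts, but no difference passed the threshold. The ratio of the means was 2.81 for *Cxcr2*, 2.56 for *Fpr1*, 2.54 for *S100a8*, 2.38 for *S100a9*, 2.37 for *Retnlg*, 1.85 for *Csf3r* and 1.22 for *Ngp*. It was 2.92 for *Trem1* and 2.46 for *Fpr2*, which passed the filter on low values only with the help of the ZT13 LPS mice. *Trem1* reached 1 CPM in 3 mice, all of them ZT13 LPS, and *Fpr2* in 2 ZT1 LPS mice and 5 ZT13 LPS mice, so their values in this comparison are a description. The fitted log2 differences ran from 0.28 for *Ngp* (95% interval -0.27 to 0.83) to 1.66 for *Cxcr2* (95% interval 0.66 to 2.67). With limma, 0 of 9 were called and 0.0212% of all genes tested were, 4 genes in all, with adjusted p of 0.13 for *Retnlg* to 0.79 for *Ngp*. At an unadjusted p under 0.05 there were 8 of 9, all but *Ngp*, and all of them higher at ZT13, a count that includes *Trem1* and *Fpr2* and supports nothing on its own. Over all genes 10.6% had such a p, and 7.67% had it with the higher level at ZT13. The exact permutation test gave p = 0.016 for *Retnlg*, 0.024 for *Trem1*, 0.032 for *Cxcr2* and *Fpr1*, 0.040 for *S100a9*, 0.048 for *S100a8* and *Fpr2*, 0.095 for *Csf3r* and 0.38 for *Ngp*, with no adjustment for 9 genes. The ZT1 and ZT13 LPS groups overlapped for every one of the 9, and over all genes tested 1.55% did not overlap with the higher level at ZT13.

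For *S100a8*, *S100a9*, *Csf3r*, *Cxcr2*, *Fpr1* and *Fpr2*, ZT1 LPS replicates 1 and 4 lay above ZT13 LPS replicate 5. The other 3 ZT1 LPS mice lay below it. Without ZT1 LPS replicate 1, 4 of the 9 passed the adjusted threshold (*Retnlg*, *Cxcr2*, *Fpr1* and *S100a9*, with log2 differences of 1.36, 1.96, 1.61 and 1.79), and leaving out any other LPS mouse gave 0. Calls over all genes tested moved as well, from 4 with all mice to between 0 and 345 when 1 mouse was left out. *Retnlg* alone passed when one variance was estimated from all 16 samples, and again when samples were weighted by quality.

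In the PBS mice the 9 transcripts gave no call between ZT13 and ZT1, where 0.52% of all genes tested were called. None had an unadjusted limma p under 0.05, against 13.5% of all genes tested. All but *Csf3r* had only 0 to 13 reads a library in these mice, so a small p was hardly possible for them. Their count therefore says nothing on a difference with time before LPS. The fitted value was above 0 at ZT13 for 3 of the 9, and it was 0 for *Cxcr2* and *Trem1*, which had 0 reads. *Csf3r*, the best measured of them in these mice, had a mean of 3.43 ± 0.241 CPM at ZT13 (SD, n = 3), and of 3.97 ± 0.317 CPM at ZT1 (SD, n = 3), for a log2 difference of -0.19 (95% interval -0.46 to 0.09, limma adjusted p = 0.57). The exact permutation test cannot go below p = 0.10 with 3 mice against 3. The time by treatment interaction, fitted over all 16 mice, was positive for all 9, from 0.52 for *Ngp* to 1.71 for *S100a8* on the log2 scale. None passed, at limma adjusted p of 0.40 to 0.75, and 7 had an unadjusted p under 0.05, the exceptions being *Ngp* and *Fpr2*. *Trem1*, one of the 7, and *Fpr2* passed the filter on low values only with the help of the ZT13 LPS mice. A high level in those mice also makes the interaction positive, so both counts are a description and support nothing on their own. Over all genes tested 0.159% were called for the interaction 9.25% had an unadjusted p under 0.05, and 5.93% had one with a positive value. The LPS mice are shared between these comparisons, so their values are not separate evidence.

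**Figure D2:**
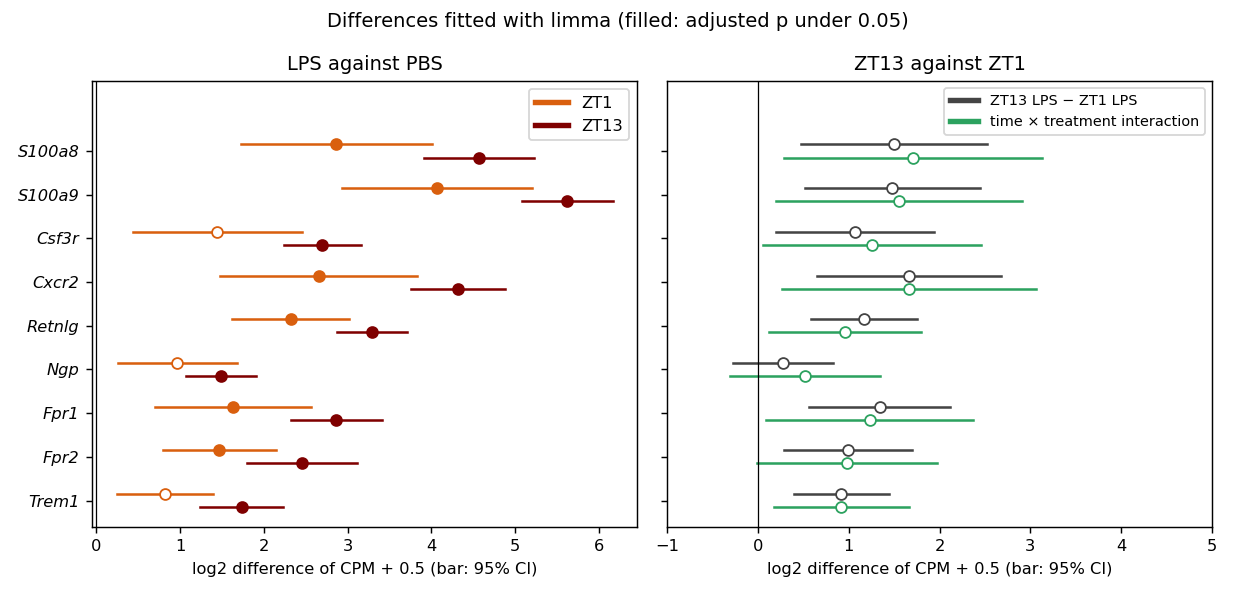
Fitted log2 differences of CPM + 0.5 (x axis) for each of the 9 transcripts (y axis), with 95% confidence intervals as bars and filled points where the limma adjusted p was under 0.05. The left panel gives LPS against PBS, with 6 filled points at ZT1 and 9 at ZT13, and the right panel gives ZT13 against ZT1 in LPS mice and the interaction, with all points open.

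The spread between mice was wide within each LPS group, and it was shared by most of the 9 transcripts. At ZT1, replicates 1 and 4 held the highest 2 values of 8 of the 9, all but *Ngp*, and replicate 2 had the lowest value of 6. Replicates 2 and 5 were each among the lowest 2 for 8 of 9. At ZT13, replicate 5 was the lowest for all 9, replicate 3 was among the highest 2 for all 9 and replicate 4 for 8. The median SD of log2(CPM + 0.5) over the 9 was 0.893 at ZT1 and 0.505 at ZT13, against 0.133 and 0.111 over all genes tested, which include many abundant genes with little counting error. *Gfap* was also lowest within each LPS group in ZT1 replicate 2, at 572 CPM, and in ZT13 replicate 5, at 791 CPM.

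After subtracting the group means, the 28 pairs among the 8 transcripts other than *Ngp* had Pearson correlations of 0.66 to 0.98 over the 16 mice, with a median of 0.83. The 8 pairs with *Ngp* had correlations of -0.27 to 0.29, with a median of -0.06. All of these share libraries, and they are given as a description. The ratio of *Cxcr2* to *S100a8* CPM varied 1.66-fold over the 10 LPS mice and that of *S100a9* to *S100a8* 1.69-fold. The ratio of *Ngp* to *S100a8* varied 23.6-fold, from 0.0502 in ZT1 LPS replicate 4 to 1.19 in ZT1 LPS replicate 2. Within ZT13 LPS it varied 1.96-fold. *Ngp* was counted with 12 to 60 reads in the LPS libraries.

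**Figure D3:**
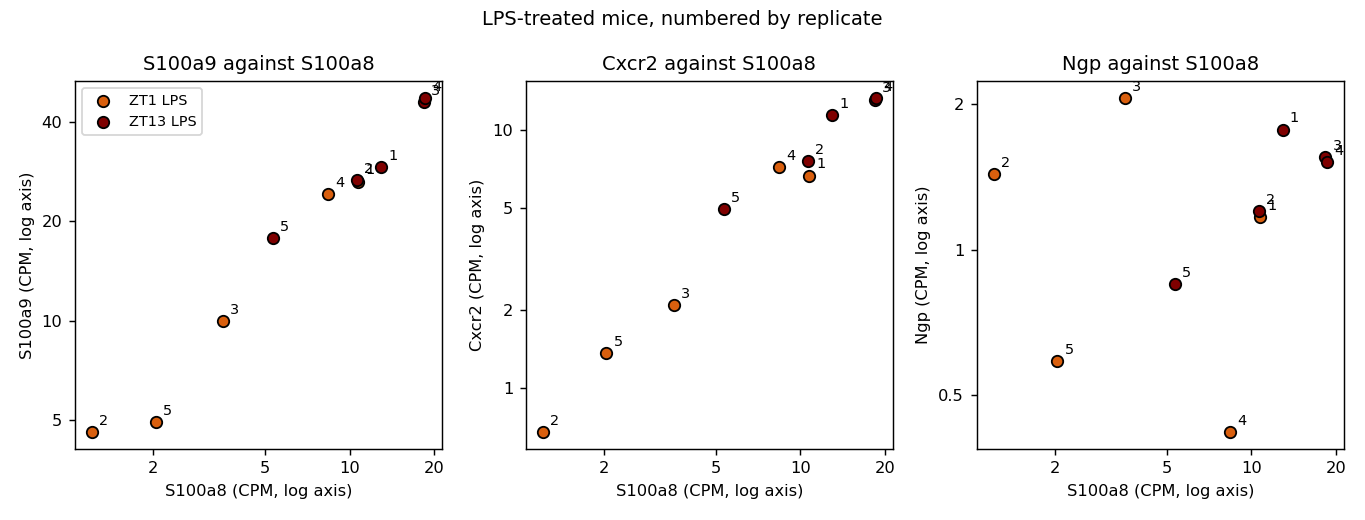
CPM of *S100a9*, *Cxcr2* and *Ngp* (y axes, log scale) against CPM of *S100a8* (x axes, log scale) in the 10 LPS mice, coloured by time and numbered by replicate. *S100a9* and *Cxcr2* rise along a line with *S100a8*, and *Ngp* does not, with ZT1 LPS replicate 2 low in *S100a8* (1.21 CPM) but at 1.43 CPM of *Ngp*.

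Levels of different genes were compared after dividing CPM by the summed exon length of the gene in kilobases. In ZT13 LPS the order was *S100a9* (63.9 ± 24.6 CPM per kilobase, SD, n = 5), *S100a8* (19.0 ± 8.04), *Retnlg* (9.46 ± 2.53), *Csf3r* (7.26 ± 2.39), *Fpr1* (4.22 ± 1.53), *Cxcr2* (3.31 ± 1.22), *Fpr2* (2.11 ± 1.08), *Ngp* (1.13 ± 0.293) and *Trem1* (0.408 ± 0.165). Each gene was above the next in 5 of 5 mice. The closest neighbours were *Fpr1* and *Cxcr2*, with a mean log2 ratio of 0.37 ± 0.25 (SD, n = 5), and *Retnlg* and *Csf3r*, with 0.41 ± 0.20 (SD, n = 5). In ZT1 PBS the order was different at the top, since *Csf3r* was at 1.10 ± 0.0880 CPM per kilobase (SD, n = 3) and *S100a9* at 0.369 ± 0.335 (SD, n = 3).

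For each transcript the 3 genes with the most similar deviations from the group means over 16 mice were looked up among all genes tested. For *S100a8* they were *Cxcr2* (r = 0.98), *Fcer1g* (0.97), the signalling chain of Fc receptors, and *S100a9* (0.97). For *S100a9* they were *Csf2rb* (0.98), the shared receptor subunit for GM-CSF, IL-3 and IL-5, then *Siglece* (0.97) and *Fcer1g* (0.97). For *Csf3r* they were the kinase genes *Lyn* (0.98) and *Syk* (0.97) and the lysosomal gene *Laptm5* (0.97), and for *Cxcr2* they were *S100a8* (0.98), the chemokine gene *Ccl6* (0.96) and *Csf3r* (0.95). *Retnlg* was nearest to the C-type lectin gene *Clec4e* (0.95), *Chil3* (0.94) and *Clec4a1* (0.92). *Fpr1* was nearest to *Ppp1r18* (0.94), *Elf4* (0.93) and *Sh3bgrl* (0.93), *Fpr2* to *Gm43012* (0.94), *Wfdc21* (0.93) and *Pirb* (0.93), and *Trem1* to genes that included *Milr1* (0.93) and *Traf3ip3* (0.91). *Ngp* stood apart here in its lower r: its nearest genes were *4930539J05Rik*, *Mnat1* and *Ube2z*, with r of 0.81, 0.80 and 0.80.

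Granule protein genes differed widely in level. Those for primary granules, myeloperoxidase (*Mpo*), neutrophil elastase (*Elane*) and cathepsin G (*Ctsg*), were at 0 to 0.833 CPM in all 16 mice, and the highest of these values, for *Mpo*, was in a ZT13 PBS mouse. *Prtn3*, proteinase 3, was at 0.590 to 1.95 CPM and was not called at either time (limma adjusted p = 0.89 and 0.81). The secondary granule genes *Ltf* (lactoferrin) and *Camp* (cathelicidin) were too low to test, and *Ltf* was highest in ZT1 LPS replicate 3, at 1.13 CPM, the mouse with the highest *Ngp* of its group. Of the 9 granule genes 4 could be tested, and *Lcn2*, *Mmp8* and *Mmp9* rose at both times.

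*Mmp8*, neutrophil collagenase, was at 0 in 5 of the 6 PBS mice and at 0.0421 CPM in the other one. In ZT1 LPS it was at 3.45, 0.940, 1.72, 3.26 and 0.952 CPM, and in ZT13 LPS at 7.93, 6.02, 11.8, 11.3 and 4.30 CPM. Its log2 fold change was 2.18 at ZT1 (SE 0.34, limma adjusted p = 0.0014) and 4.05 at ZT13 (SE 0.26, limma adjusted p = 5.8e-08), and ZT1 LPS replicates 1 and 4 were the highest of their group, as for *S100a8*. *Mmp9*, gelatinase B, averaged 1.33 ± 0.131 CPM (SD, n = 3) in ZT1 PBS, 7.83 ± 4.06 (SD, n = 5) in ZT1 LPS, 1.07 ± 0.453 (SD, n = 3) in ZT13 PBS and 17.0 ± 4.44 (SD, n = 5) in ZT13 LPS. *Lcn2*, lipocalin 2, which astrocytes and endothelium also make during inflammation, was at 107 to 326 CPM in ZT1 LPS and 278 to 418 CPM in ZT13 LPS.

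**Figure D4:**
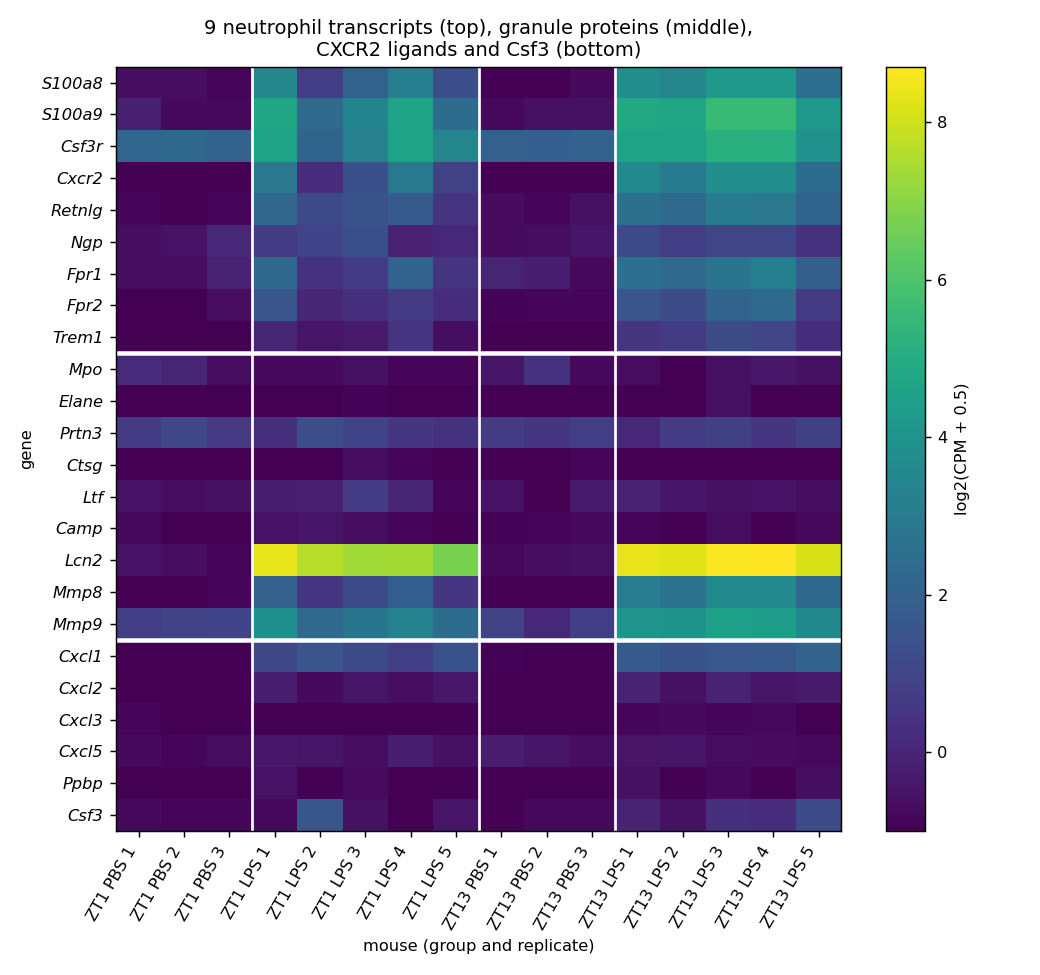
Heat map of log2(CPM + 0.5) with genes as rows and the 16 mice as columns, labelled by group and replicate, showing the 9 transcripts (top block), granule proteins (middle) and CXCR2 ligands with *Csf3* (bottom). *Mpo*, *Elane* and *Ctsg* stay at the dark end in every mouse, at no more than 0.833 CPM, whereas *Lcn2* is brightest in the 10 LPS mice, at 107 to 418 CPM.

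Of 15 other genes linked to neutrophils, 13 could be tested, and 9 rose at ZT1 and 11 at ZT13, with none falling. *Cd177*, a surface protein of neutrophils, averaged 0.0493 ± 0.0854 CPM (SD, n = 3) in ZT1 PBS and 0.635 ± 0.510 (SD, n = 5) in ZT1 LPS (limma adjusted p = 0.055), and it rose at ZT13 from 0.0448 ± 0.0776 (SD, n = 3) to 1.70 ± 0.557 (SD, n = 5). *Il1r2*, the decoy receptor for interleukin 1, rose by 1.52 at ZT1 and 3.41 at ZT13 on the log2 scale. *Clec4d* and *Clec4e*, which encode C-type lectin receptors of myeloid cells, rose at both times, by 1.06 and 1.20 at ZT1 and by 1.78 and 2.24 at ZT13. *Ly6g*, the usual surface marker of mouse neutrophils, was at 0 in the 6 PBS mice and at 0 to 0.152 CPM in the LPS mice, too low to test. Median log2 changes of the 13 were 1.14 at ZT1 and 1.98 at ZT13, against 0.04 and 0.05 over all genes tested.

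Among ligands of CXCR2, *Cxcl1* was the one gene of 5 that could be tested, and it rose at both times. It was at 0 in ZT1 PBS and at 1.63, 2.46, 1.79, 1.23 and 2.22 CPM in ZT1 LPS. In ZT13 PBS it was at 0.0380, 0 and 0 CPM, and in ZT13 LPS at 2.88, 2.36, 2.60, 2.77 and 3.76 CPM. On the log2 scale it rose by 2.22 at ZT1 (SE 0.20, limma adjusted p = 2.5e-05) and by 2.71 at ZT13 (SE 0.16, limma adjusted p = 3.3e-08). At each time the LPS mouse with the lowest *Cxcr2* had the highest *Cxcl1*. *Cxcl2* was at 0 in PBS mice and at 0.0895 to 0.461 CPM in LPS mice, *Cxcl3* at 0 to 0.0859 CPM, *Cxcl5* at 0.0494 to 0.385 CPM and *Ppbp* at 0 to 0.187 CPM over all mice.

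*Csf3*, which encodes granulocyte colony-stimulating factor, the ligand of CSF3R, was too low to test. It was at 0 to 0.0986 CPM in the PBS mice. In ZT1 LPS it was at 0.0933, 2.51, 0.172, 0 and 0.227 CPM, and in ZT13 LPS at 0.443, 0.172, 0.755, 0.682 and 1.84 CPM. The highest mice were ZT1 LPS replicate 2 and ZT13 LPS replicate 5, the animals with the lowest *Csf3r* in their groups. Of the 6 genes for colony-stimulating factors and their other receptors, 4 could be tested, and *Csf2rb*, *Csf1* and *Csf1r* rose at both times while *Csf2ra* did not (limma adjusted p = 0.31 and 0.079).

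Among the other formyl peptide receptor genes, *Fpr3*, *Fpr-rs4*, *Fpr-rs6* and *Fpr-rs7* were listed at 0 in all 16 mice and *Fpr-rs3* in 15. The FPR2 ligands *Anxa1* and *Saa3* rose at both times, *Anxa1* by log2 fold changes of 1.45 and 1.59 and *Saa3* by 7.33 and 8.49. Of 8 genes of the TREM family and its signalling chain, 5 were tested. *Tyrobp*, the adaptor of TREM1, rose from 4.01 ± 0.253 CPM (SD, n = 3) to 10.04 ± 2.69 (SD, n = 5) at ZT1 and from 3.60 ± 0.127 (SD, n = 3) to 14.5 ± 1.63 (SD, n = 5) at ZT13, and *Treml2*, *Syk* and *Card9* rose as well. *Trem2*, the microglial member, was not called, with log2 differences of -0.01 and -0.32. *Tlr4*, a receptor of calprotectin and of LPS, rose by 1.07 and 1.24, and *Ager*, another calprotectin receptor, rose at ZT13 by 0.72.

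The other S100 genes rose less than the calprotectin pair, where they rose. Of 13, 8 could be tested, and 5 rose at ZT1 and 7 at ZT13, where 11.1% and 19.2% of all genes tested were called higher. *S100a4* went from 0.375 ± 0.151 CPM (SD, n = 3) to 1.66 ± 0.640 (SD, n = 5) at ZT1 and from 0.373 ± 0.0792 (SD, n = 3) to 2.73 ± 0.271 (SD, n = 5) at ZT13, and *S100a6* had log2 fold changes of 1.39 and 2.01. *S100a5*, which lies in the same gene cluster, was at 0 to 0.148 CPM in all 16 mice.

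Markers of other cells that cortex could hold were counted in the same way, and their part in the results was not tested. All 4 monocyte markers, *Ccr2*, *Ly6c2*, *Plac8* and *Chil3*, rose at both times, with a summed level of 0.154 to 0.642 CPM in PBS mice, 3.35 to 13.5 in ZT1 LPS and 10.9 to 29.9 in ZT13 LPS. Their sum was highest in ZT1 LPS replicates 1 and 4 and in ZT13 LPS replicates 3 and 4, as were most of the 9 neutrophil transcripts. *Chil3*, which neutrophils also express, made up 10.1 of the 13.5 CPM in ZT1 LPS replicate 1 and 1.30 of the 3.45 CPM in replicate 2. *Ccr2*, the defining marker of inflammatory monocytes, averaged 0.981 ± 0.567 CPM (SD, n = 5) in ZT1 LPS and 1.75 ± 0.541 (SD, n = 5) in ZT13 LPS. Of 7 microglial markers 5 rose and 2 fell at each time, with a summed level of 199 to 222 CPM in PBS mice, 216 to 348 in ZT1 LPS and 254 to 301 in ZT13 LPS. The ones that fell were *P2ry12*, by 1.07 and 1.16 on the log2 scale, and *Siglech*, by 1.75 and 2.43. Of the 4 border macrophage markers tested, *Cd163* and *F13a1* rose at both times, and *Mrc1* did not (limma adjusted p = 0.88 and 0.53).

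Red cell transcripts were counted as a measure of blood RNA in the tissue. The study's methods describe perfusion with heparinized PBS for mice whose tissue was frozen for RNA, without naming the sequenced mice. None of the 5 erythrocyte markers tested was called at either time by limma, and none had an unadjusted p under 0.05. Their summed level was 9.66 to 19.9 CPM in the PBS mice, 6.23 to 35.9 in ZT1 LPS and 6.60 to 25.2 in ZT13 LPS. By mouse the sums were 24.1, 35.9, 9.19, 6.23 and 8.36 CPM in ZT1 LPS and 22.1, 6.60, 25.2, 24.1 and 11.1 CPM in ZT13 LPS. At ZT1 the highest sum was in replicate 2, the mouse with the lowest *S100a8*, and the next in replicate 1, the mouse with the highest. At ZT13 the 3 mice with the highest sums, replicates 3, 4 and 1, were also the 3 with the highest *S100a8*, and the part of blood RNA in the levels of the 9 was not tested. *Hba-a1* averaged 3.28 ± 1.53 CPM (SD, n = 3) in ZT1 PBS and 4.38 ± 4.32 (SD, n = 5) in ZT1 LPS. Lymphocyte markers stayed low except *Ighm*, the immunoglobulin heavy chain of naive B cells, which fell from 12.7 ± 1.92 CPM (SD, n = 3) to 6.10 ± 2.32 (SD, n = 5) at ZT1 and from 14.3 ± 3.12 (SD, n = 3) to 2.80 ± 1.14 (SD, n = 5) at ZT13, in the direction opposite to the 9. Of 4 choroid plexus markers none was called, and *Ttr*, the transthyretin gene, ranged from 4.57 to 777 CPM within ZT1 LPS. Like *S100a8*, it was highest in replicate 1 and lowest in replicate 2. In replicate 4 *Ttr* was at 11.2 CPM, while *S100a8* was at 8.37 CPM, and the part of choroid plexus RNA was not tested. The platelet markers tested gave 0 calls of 2 at ZT1 and 1 at ZT13, *Itga2b*, and those of meningeal fibroblasts gave 1 of 4 at ZT1, *Dcn* higher, and 3 of 4 at ZT13, *Dcn* and *Col1a1* higher and *Igf2* lower.

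The 250 bases before the RefSeq start of each of the 9 genes were searched on both strands for 4 motif cores, and no core is contained in another. TTGCNNAA, a core bound by C/EBP factors, which drive granulocyte genes, was found in 3 of 9 (*S100a9*, *Retnlg* and *Ngp*) and in 9.56% of all 32851 promoters of the same length. GAGGAAG, a core of the myeloid factor PU.1, was found in 2 (*S100a8* and *Csf3r*) and in 10.6% of all. TTCNNNGAA, bound by STAT factors, was found in 2 (*Fpr2* and *Trem1*) and in 7.02% of all, and CACGTG, the E-box of the clock factors CLOCK and BMAL1, in 0 of 9 and in 6.02% of all. *Cxcr2* and *Fpr1* held none of the 4. In the printed stretches the *Ngp* and *S100a9* matches are to the letters of the C/EBP core, and that of *S100a8* is the PU.1 core read on the other strand.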

How the data were processed

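The authors deposited 1 table of CPM per gene, with a column for each of 16 cortex samples, from total RNA depleted of ribosomal RNA. The submitters' processing notes name bcl2fastq, DRAGEN 4.0.3-8 and GRCm38. The annotation and counting settings are not given in the sources used here. Each column sums to 1000000. Of 55774 lines, 287 repeated a gene and were dropped. Depth was read from the step between low values. Only 80.7% to 82.8% of values up to 20 reads were whole (tolerance 0.01), so no count test was run. Samples were grouped by title. Replicate numbers name mice, and the labels do not pair them or say that the mice were handled apart.

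The 18859 genes that reached 1 CPM in 3 or more of the 16 samples were fitted with limma 3.58.1 (R 4.3.3) on log2(CPM + 0.5) with an intensity trend. Each pairwise comparison used its 2 groups and the interaction used all 16 samples. Benjamini-Hochberg adjustment ran over all genes tested, and a gene was called at an adjusted p under 0.05. The constant of 0.5 understates changes of low genes. The steps were tested on simulated data with little spread between mice beyond counting error. That test does not cover a spread as wide as that of the 9 in the LPS mice. Permutation tests were exact, two-sided and made on means of log2(CPM + 0.5). Fold limits took 3 reads in each PBS library. Coordinates and exon lengths are from GENCODE M21, and promoters from RefSeq (GRCm38.p6, 9 of 9 matched). The members and lists were chosen with earlier results of these data known. All 9 members were named, with up to 6 genes from each other list in list order and all granule and CXCR2 ligand genes. *Saa3*, *Syk*, *Card9* and *Ighm* stand later in their lists and were chosen after their values were seen. The values of 1 gene that the rule names are not reported here. Alternatives were another constant, filter, scaling, variance model, a replicate block, groups from the treatment field, and 1 mouse left out at a time.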

Additional observations from a re-analysis of the deposited data

How the results depend on the processing

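With LPS set against PBS, the 9 transcripts kept a positive sign under every alternative that took treatment from the titles, at both times. At ZT1 6 of 9 were called, and 2 were (*S100a9* and *Retnlg*) when every gene with any reads was tested. The other alternatives with all mice gave 5 to 9, and leaving out 1 mouse gave 5 to 8. Over all genes tested at ZT1, leaving out 1 mouse gave 1767 to 3758 calls, against 3061 with all mice. At ZT13 9 were called under each alternative but a filter at 5 CPM, which left 6 to test and called 6. Over all genes tested at ZT13, leaving out 1 mouse gave 4329 to 5547 calls, against 5401 with all mice. With the treatment field in place of the titles 0 were called at ZT1 and 0 at ZT13. Between ZT13 and ZT1 LPS mice 0 were called, 1 (*Retnlg*) with a single fit of all 16 samples, 1 (*Retnlg*) with sample quality weights, and 0 to 4 when leaving out 1 mouse. Over all genes tested in that comparison, leaving out 1 mouse gave 0 to 345 calls, against 4 with all mice. The interaction and the PBS comparison gave 0 under each alternative run. The cause of these changes was not tested. Samples with the same replicate number were not alike (residual correlations of -0.20 to 0.33 over 20 pairs), so the numbers were not taken as pairs. With a replicate block 7 were called at ZT1, adding *Ngp*, 9 at ZT13 and 0 in the other comparisons. The block gave 2637 calls over all genes tested at ZT1 and 4680 at ZT13. Depth limits *Trem1*, *Ngp* and all 9 in PBS mice except *Csf3r*, where 0 to 13 reads were counted.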
